A study of Mus musculus with 8 samples.

Results

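The 45 genes described here encode the machinery of cell division: the kinases that start mitosis, the checkpoint that guards it, the centromere and kinetochore, the spindle, cytokinesis and condensin. They were taken by name from the table of 55416 gene identifiers, all 45 were found, and all 45 were counted well enough to be tested. Messenger RNA was sequenced in MB21 cells, a mouse medulloblastoma line labelled as a ptch mutant and grown unattached in DMEM/F12 with B27. One group of 4 libraries, called DS38 here, received 10 uM DS-1-38, a compound derived from benzarone, for 5 days, and the other 4 libraries, called DMSO, received vehicle for the same time. Both groups therefore carry the ptch mutation, and MB21 is a single line. The question was which transcripts differ after this exposure.

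Entry into mitosis is triggered by Cdk1 once it has bound a B-type cyclin and been activated by Cdc25 phosphatases. Kinetochores assembled on centromeres then attach chromosomes to the spindle, and unattached kinetochores hold back the anaphase-promoting complex through the spindle checkpoint. Most of these genes are switched on together late in the cell cycle, and their transcripts serve as a readout of dividing cells in tumours. Ptch1, the receptor that restrains Hedgehog signalling, is a known tumour suppressor in medulloblastoma, which arises from dividing granule neuron progenitors. In a mixed culture, a change in the share of cells that are near mitosis and a change in transcript per cell cannot be told apart.

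Library totals ran from 17142397 to 28476019 counts. Values are given as CPM, counts of a gene scaled to the same library size after TMM normalisation, which corrects for differences in library composition. The labels do not state that libraries of a group are separate cultures, so every p-value reflects only how these libraries scatter, and that scatter may be technical. The granule neuron progenitor markers Atoh1, Barhl1, Zic1, Zic2, Pax6, Meis1 and Neurod1 were all present, and their summed level was 1430 to 1500 CPM in DMSO and 1680 to 1740 in DS38. They did not move as one: Zic1, the most abundant, was lower in DS38 (624 and 557 CPM, edgeR adjusted p = 0.00738). Neurod1 did not pass, and the others were higher. Microglia and endothelial markers were near 0, with sums of at most 1.96 CPM for 6 microglia and macrophage markers (Cx3cr1 at 0) and 2.61 CPM for 5 endothelial markers (Cldn5 at 0). The 6 fibroblast markers summed to 74.2 to 78.7 CPM in DMSO and 53.2 to 57.2 in DS38, nearly all of it Pdgfra, the 5 astrocyte markers to 119 to 124 and 111 to 114, nearly all of it Slc1a3, and the 6 oligodendrocyte lineage markers to 12.4 to 15.3 and 12.8 to 15. Their part in the results was not tested.

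With DS-1-38, transcripts of the mitosis genes moved in both directions. The B-type cyclins, the activating phosphatase gene Cdc25c, the anaphase genes Cdc20 and Pttg1 and the spindle genes Dlgap5 and Tpx2 were higher, while Cdk1, 6 of 10 centromere and kinetochore genes, Top2a and 4 of the 5 condensin I genes were lower. Of the 45, 15 rose, 17 fell and 13 did not pass edgeR's quasi-likelihood test at a Benjamini-Hochberg adjusted p under 0.05 over all 15133 genes. The share that changed was 71.1%, against 39.5% of all tested genes, with 33.3% higher against 18.8% and 37.8% lower against 20.7%. These genes are well counted, and among the 8309 genes whose mean lay in their range, 15.5 to 1110 CPM, 49.6% were called, 20.6% higher and 28.9% lower. The changes were small: the largest, of Spc24, was 1.56-fold, and 1 of the 32 called members moved more than 1.5-fold, against 1144 of the 5980 called genes. With libraries scaled by their totals alone, the split was 16 higher and 12 lower, and the share of all called genes that were higher went from 47.5% to 64.3%.

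The median log2 change of the 45 (edgeR log2 fold change, DS38 minus DMSO) was -0.030 and the mean 0.0082, beside -0.0093 and 0.0097 for all tested genes. Their summed level was 9845, 9566, 9936 and 9829 CPM in the DMSO libraries and 9877, 10141, 9649 and 9546 in the DS38 libraries, so the groups overlapped. Scaled by plain totals the sums were 9581 ± 131 and 9998 ± 316 CPM (SD, n = 4 each), and the groups then did not overlap. The 4 DS38 libraries lay wholly above the 4 DMSO libraries for 15 genes and wholly below for 17, together 71.1%, against 36.1% of all tested genes. These are not exactly the called genes, since Aspm and Spc25 were called with overlapping groups and Bub1 and Prc1 were not called although theirs did not overlap.

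**Figure D1:**
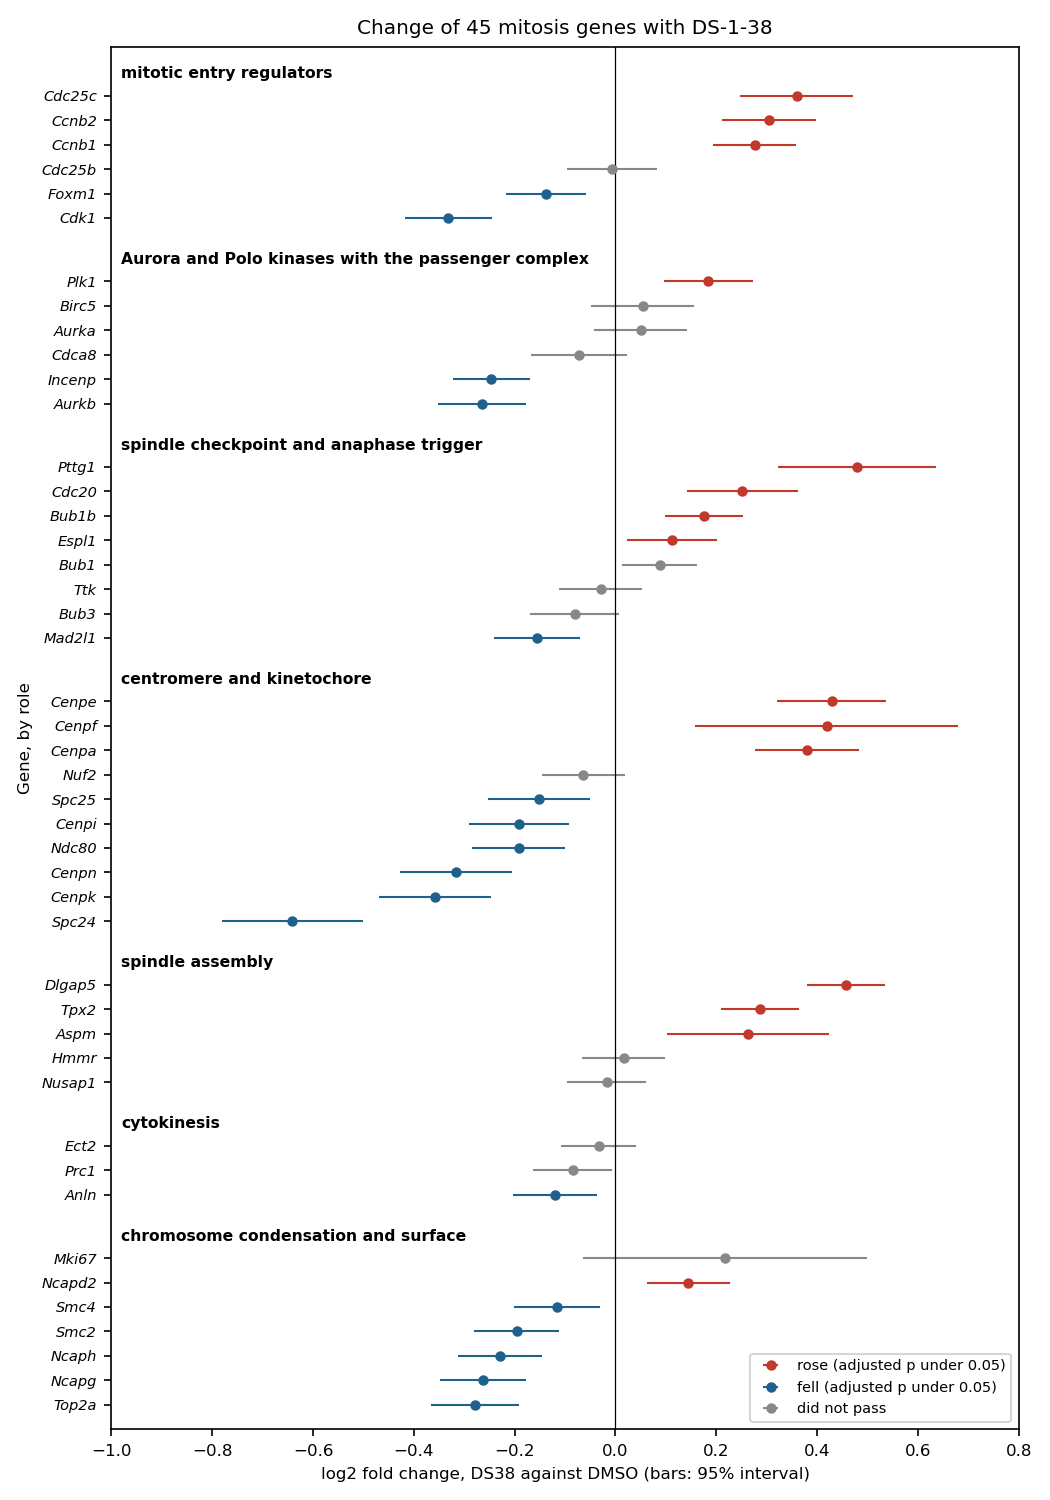
Log2 fold change of each of the 45 genes, DS38 against DMSO, with its 95% interval, grouped by role (red: rose, 15 genes; blue: fell, 17 genes; grey: did not pass, 13 genes). Every role except spindle assembly and cytokinesis holds both red and blue points, and Spc24 lies farthest from 0.

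**Figure D2:**
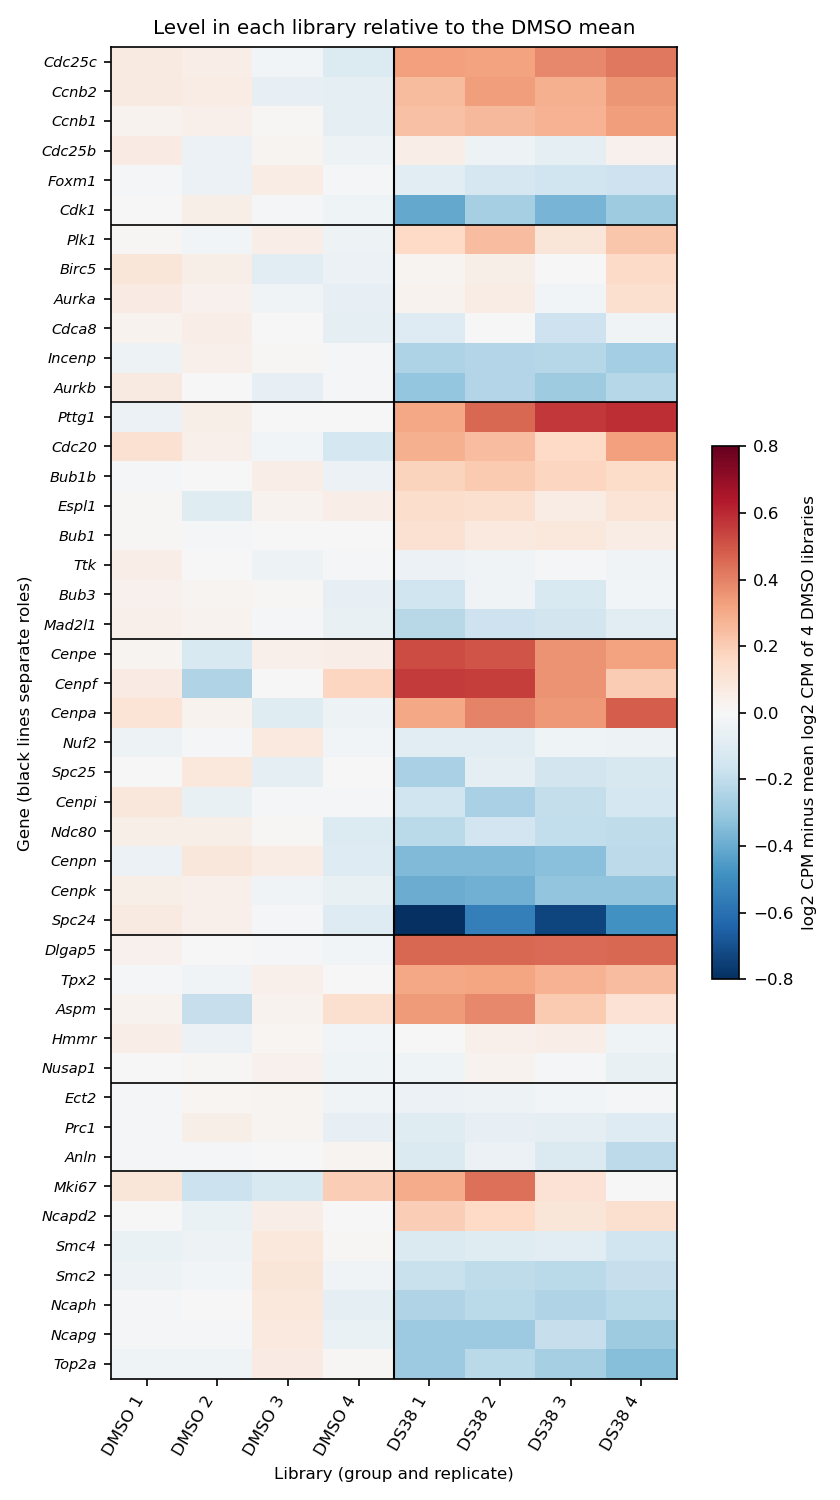
Level of each gene in each of the 8 libraries, as log2 CPM minus the mean log2 CPM of the 4 DMSO libraries (red: higher; blue: lower). Within a gene that changed, such as Dlgap5 or Spc24, the 4 DS38 columns share a colour, whereas Cenpf, Aspm and Mki67 also vary between libraries of one group.

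Promoters of mitotic genes are known for a CHR element, the letters TTTGAA or TTTAAA, which the DREAM and MuvB-B-Myb-FoxM1 complexes bind, beside CCAAT boxes bound by NF-Y. RefSeq promoter windows of build GRCm38.p6, from 250 bases before to 50 after the start, were found for 37 of the 45 genes. Both strands were searched, TTTAAA reads the same on both, and the 2 motifs were counted separately although matches can share bases. A CHR match was present in 28 of the 37 (75.7%), against 22.3% of the 10150 tested genes with a window and 27.6% of all 32851 windows. A CCAAT match was present in 29 (78.4%), against 43.3% and 37.4%, and both in 25 (67.6%), against 9.22% and 10.7%. By call, both were present in 11 of 12 members that rose, 6 of 12 that fell and 8 of 13 that did not pass, and a CHR match, with or without CCAAT, in 11, 8 and 9. Of 99 other mitosis genes, described below, 82 had a window. A CHR match was found in 34 of these (41.5%), a CCAAT match in 44 (53.7%) and both in 20 (24.4%). Of 32 DNA replication genes, 8 had a CHR match and 21 a CCAAT match. These are matches of letters, and the difference between rising and falling members was not tested.

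The 150 bases before the start are shown for the 4 rises and the 4 falls with the smallest p that had 1 window in the table. All of these genes held both motifs in the full window. The stretches therefore do not show the difference in motif counts between rises and falls. Capitals mark CHR letters (TTTGAA, its reverse complement TTCAAA, or TTTAAA) and CCAAT boxes (CCAAT or ATTGG). The rises are Cenpe (chr3:135212413-135212562, plus strand), Cenpa (chr5:30666736-30666885, plus), Ccnb1 (chr13:100786487-100786636, minus) and Ccnb2 (chr9:70421555-70421704, minus). The falls are Cdk1 (chr10:69352913-69353062, minus), Top2a (chr11:99024190-99024339, minus), Ncapg (chr5:45669775-45669924, plus) and Cenpn (chr8:116921590-116921739, plus), all in GRCm38.p6.
Cenpe: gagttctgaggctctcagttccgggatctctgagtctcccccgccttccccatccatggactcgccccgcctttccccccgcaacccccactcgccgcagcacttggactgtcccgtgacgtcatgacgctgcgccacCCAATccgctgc
Cenpa: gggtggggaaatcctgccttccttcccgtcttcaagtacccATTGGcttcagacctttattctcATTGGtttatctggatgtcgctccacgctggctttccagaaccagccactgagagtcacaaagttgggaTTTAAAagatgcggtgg
Ccnb1: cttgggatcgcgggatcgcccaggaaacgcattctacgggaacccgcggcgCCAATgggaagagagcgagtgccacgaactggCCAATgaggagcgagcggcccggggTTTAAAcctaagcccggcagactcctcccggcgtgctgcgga
Ccnb2: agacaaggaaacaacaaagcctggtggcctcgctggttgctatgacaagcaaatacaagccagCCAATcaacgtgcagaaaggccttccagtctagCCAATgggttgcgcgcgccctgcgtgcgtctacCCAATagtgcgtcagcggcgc
Cdk1: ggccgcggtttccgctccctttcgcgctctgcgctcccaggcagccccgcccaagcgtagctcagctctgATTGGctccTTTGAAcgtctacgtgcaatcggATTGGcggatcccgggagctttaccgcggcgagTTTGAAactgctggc
Top2a: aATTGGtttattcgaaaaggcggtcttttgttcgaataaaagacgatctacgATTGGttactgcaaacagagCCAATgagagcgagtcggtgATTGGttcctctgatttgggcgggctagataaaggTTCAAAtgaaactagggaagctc
Ncapg: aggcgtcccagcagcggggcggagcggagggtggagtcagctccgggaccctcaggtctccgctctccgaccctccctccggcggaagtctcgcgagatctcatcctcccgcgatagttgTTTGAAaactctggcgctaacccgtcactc
Cenpn: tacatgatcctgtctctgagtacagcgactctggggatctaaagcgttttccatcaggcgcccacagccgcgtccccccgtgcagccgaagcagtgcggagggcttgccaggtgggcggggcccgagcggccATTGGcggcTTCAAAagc
In these stretches Ccnb1 and Cenpa each held 1 CHR match and 2 CCAAT boxes, Cdk1 held 2 of each, and Top2a held 1 and 4. Cenpe had 1 CCAAT box and Ccnb2 had 3, with no CHR match in the bases shown and 1 each in the 50 bases after the start. Ncapg had 1 CHR match and no CCAAT box here, and its CCAAT box lay upstream of the bases shown. Cenpn had 1 CHR match and 1 CCAAT box. Ccnb2 had a further CHR match upstream of the bases shown, and Cenpa, Cdk1 and Top2a also held further matches outside them.

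Among the regulators of mitotic entry, 3 rose and 2 fell of 6, a share of 83.3% beside 39.5% of all tested genes. Cdk1, the catalytic subunit that drives entry, stood at 243, 251, 242 and 238 CPM in the DMSO libraries and 183, 202, 188 and 199.8 in the DS38 libraries. All DS38 values were below all DMSO values, a log2 change of -0.33 ± 0.041 SE (edgeR adjusted p = 4.90e-06). Ccnb1, the main cyclin partner of Cdk1, went the other way, from 244, 246, 241 and 227 to 281, 287, 291 and 302 CPM. Its groups did not overlap, and it rose by 0.28 ± 0.040 SE on the log2 scale (edgeR adjusted p = 2.63e-05). Ccnb2, a second B-type cyclin, rose as well, from 88.8, 88.0, 80.5 and 80.3 to 100.5, 106, 103 and 108 CPM (log2 change 0.30 ± 0.045 SE, edgeR adjusted p = 3.33e-05). Ccnb1 and Ccnb2 have named pseudogenes in the annotation, so some of their reads may be shared.

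Cdc25 phosphatases remove the inhibitory phosphates of Cdk1. Of the 2 Cdc25 genes in this role group, 1 passed the test, and the difference between them was not tested. Cdc25a, a further Cdc25 gene listed with the other mitosis genes, fell without overlap between the groups (log2 change -0.28, edgeR adjusted p = 0.000181). Cdc25c rose from 29.9 ± 1.67 to 38.5 ± 1.30 CPM (SD, n = 4 each, with a log2 change of 0.36, edgeR adjusted p = 3.76e-05). Cdc25b stood at 119.7, 111, 116 and 111 CPM in DMSO and 119, 111, 109 and 117 in DS38. These ranges overlapped, the log2 difference was -0.0064 with a 95% interval from -0.095 to 0.082 (edgeR adjusted p = 0.923), and its sign turned with DESeq2's size factors and with plain totals. Foxm1, the transcription factor that activates many G2 and mitosis genes, fell from 182 ± 5.56 to 166 ± 3.81 CPM (log2 change -0.14, edgeR adjusted p = 0.00775), a call that plain library totals ended (-0.077, adjusted p = 0.122). Scaled by gene length, Ccnb1, Ccnb2 and Cdk1 were close to each other in DMSO, at 56.8, 55.1 and 49.3 RPKM (CPM per kilobase of gene length). They were further apart in DS38, at 68.8, 68.2 and 39.2. RPKM levels compared between genes depend on the deposited gene length, whereas the change of a gene between groups does not.

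Of the Aurora and Polo kinases and the chromosomal passenger complex, which corrects faulty attachments and steers cytokinesis, 1 rose and 2 fell of 6. This share of 50% stood beside 39.5% of all tested genes and 49.6% of genes in the level range of the listed mitosis genes. Incenp, the scaffold of the complex, stood at 260.1, 275, 269 and 266 CPM in DMSO and 226, 228, 228 and 221 in DS38. Aurkb, its kinase, went from 116, 111, 105 and 109 to 89.1, 93.8, 90.5 and 94.1 CPM. Neither pair of groups overlapped, and the log2 changes were -0.25 ± 0.036 and -0.27 ± 0.042 SE (edgeR adjusted p = 3.59e-05 and 6.34e-05). The other 2 subunit genes did not pass. Birc5, which encodes survivin, stood at 81.0, 78.2, 71.1 and 73.3 CPM in DMSO and 77.1, 78.3, 76.0 and 84.2 in DS38, with overlapping groups (log2 difference 0.054, 95% interval -0.048 to 0.16, edgeR adjusted p = 0.403). Cdca8, which encodes borealin, had a log2 difference of -0.073 (95% interval -0.17 to 0.022, edgeR adjusted p = 0.214).

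Plk1, the Polo-like kinase of mitotic entry and spindle formation, rose from 114, 112, 118 and 111 to 127, 135, 122 and 132 CPM (log2 change 0.18 ± 0.042 SE, edgeR adjusted p = 0.00185), and its lowest DS38 library lay above its highest DMSO library. Aurka, the spindle pole Aurora kinase, had a log2 difference of 0.050 (95% interval -0.043 to 0.14) that did not pass (edgeR adjusted p = 0.394). The median of the 6 genes was -0.011, and 0.049 with plain library totals.

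Of 8 genes for the spindle checkpoint and the trigger of anaphase, 4 rose and 1 fell, a share of 62.5% beside 39.5% of all tested genes. Pttg1 encodes securin, the inhibitor of separase, and was the least counted of the 45, at 12.5, 13.3, 12.9 and 12.9 CPM in DMSO and 16.0, 17.8, 19.1 and 19.4 in DS38. The groups did not overlap and Pttg1 had the largest rise of the 45 (1.39-fold, log2 change 0.48 ± 0.075 SE, edgeR adjusted p = 6.13e-05). Cdc20, the activator of the anaphase-promoting complex, went from 167, 157, 151 and 139 to 186, 182, 171 and 193 CPM (log2 change 0.25 ± 0.052 SE, edgeR adjusted p = 0.000956). Bub1b, which encodes the checkpoint protein BubR1, went from 207, 209, 216 and 202 to 236, 240.4, 234 and 231 CPM (log2 change 0.18 ± 0.037 SE, edgeR adjusted p = 0.00104). Every DS38 library was above every DMSO library for both genes.

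Espl1, the separase gene, was called higher at a log2 change of 0.11 (edgeR adjusted p = 0.0451), but this call was the least firm of the 15 rises. It was lost without any of DMSO replicates 1, 2 and 3 or DS38 replicates 1, 2 and 4 (adjusted p = 0.056 to 0.17), and with an offset for gene length and GC content its sign turned (-0.0060, adjusted p = 0.918). Mad2l1, the checkpoint protein that holds Cdc20 inactive, fell from 252 ± 8.12 to 226 ± 8.83 CPM (log2 change -0.16, edgeR adjusted p = 0.00510), a call that plain totals ended (adjusted p = 0.0609). Ttk, the checkpoint kinase Mps1, stood at 79.5, 76.6, 74.5 and 75.5 CPM in DMSO and 74.2, 75.0, 75.9 and 75.0 in DS38, with overlapping groups (log2 difference -0.030, 95% interval -0.11 to 0.053, edgeR adjusted p = 0.585; 0.031 with plain totals). The checkpoint kinase gene Bub1 had a log2 difference of 0.088 (edgeR adjusted p = 0.0598) and passed with DESeq2's Wald test (adjusted p = 0.0374), among other settings. Bub3, its kinetochore-binding partner, had a log2 difference of -0.081 (edgeR adjusted p = 0.133).

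Of 10 centromere and kinetochore genes 3 rose and 6 fell, a share of 90% beside 39.5% of all tested genes. Their median log2 change was -0.17. Spc24 encodes a subunit of the Ndc80 complex, the site of microtubule attachment. It stood at 63.7, 62.5, 60.1 and 56.6 CPM in DMSO and 34.5, 41.5, 36.4 and 43.4 in DS38. The highest DS38 library was below the lowest DMSO library, and the log2 change of -0.64 ± 0.066 SE (edgeR adjusted p = 1.57e-06) was the largest among the 45. The other 3 subunit genes had smaller differences. Ndc80 itself (log2 change -0.19, edgeR adjusted p = 0.00205) and Spc25 (-0.15, edgeR adjusted p = 0.0175) fell, and the call of Spc25 was lost without DMSO replicate 2 (adjusted p = 0.0685) or DS38 replicate 1 (0.0764) and with plain totals (0.137). Nuf2 stood at 173, 176, 188 and 175 CPM in DMSO and 167, 167, 173 and 173 in DS38, with overlap (log2 difference -0.064, 95% interval -0.15 to 0.018, edgeR adjusted p = 0.209).

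Cenpe encodes the kinetochore motor that moves chromosomes to the spindle equator, and went from 161, 146, 164 and 165 CPM in DMSO to 228, 225, 204 and 198 in DS38. Cenpa encodes the histone H3 variant that marks centromeres, and went from 87.6, 83.0, 76.2 and 79.0 to 101, 107, 103 and 114 CPM. Neither pair of groups overlapped, and both rose, with log2 changes of 0.43 ± 0.051 and 0.38 ± 0.050 SE (edgeR adjusted p = 4.68e-06 and 9.17e-06). Cenpf, a large outer kinetochore protein gene, was the third riser and is described with the other long genes. The members Cenpk, Cenpn and Cenpi belong to the inner kinetochore, which sits on centromeric chromatin, and fell. Cenpk had a log2 change of -0.36 (edgeR adjusted p = 3.34e-05), Cenpn of -0.32 (edgeR adjusted p = 0.000117) and Cenpi of -0.19 (edgeR adjusted p = 0.00351). Other inner kinetochore genes are named after their values were seen. Of these, Cenpw (-0.46, edgeR adjusted p = 0.000535), Cenpu (-0.29), Cenph (-0.28), Cenpq (-0.23) and Cenpm (-0.23) were called lower. Cenpl alone was called higher (0.22, edgeR adjusted p = 0.00197). Cenpt (0.16), Cenpc1 (0.088), Cenpo (-0.20) and Cenpp (-0.078) did not pass. Cenpk shares exon sequence on the opposite strand with Ppwd1, which had 5527 counts against 5132 for Cenpk over the 8 libraries, and the strand setting of the counting is not given in the sources used here. Without it, reads of such pairs cannot be told apart, which also touches Cdc20, Cdc25b, Cdc25c, Cdca8, Ncapg, Nusap1, Plk1 and Prc1, while Foxm1 overlaps Tex52 on the same strand.

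Of 5 spindle assembly genes, 3 rose and 0 fell, a share of 60% beside 39.5% of all tested genes. Dlgap5, which encodes the microtubule-stabilising protein HURP, stood at 92.1, 89.5, 89.1 and 88.3 CPM in DMSO and 123, 123, 123 and 124 in DS38. Its DS38 libraries differed by less than 1 CPM, and the log2 change of 0.46 ± 0.037 SE had the smallest p of the 45 (edgeR adjusted p = 2.27e-08). Tpx2, the activator of Aurora A on the spindle, rose from 293, 290.0, 304 and 297 to 366, 368, 359 and 351 CPM without overlap (log2 change 0.29 ± 0.037 SE, edgeR adjusted p = 7.93e-06). Hmmr, which encodes a spindle pole protein, stood at 139, 130.0, 136 and 133 CPM in DMSO and 135, 138, 139.6 and 131 in DS38, with overlap (log2 difference 0.016, 95% interval -0.066 to 0.098, edgeR adjusted p = 0.772). Nusap1, a microtubule-bundling protein gene, also gave overlapping groups (log2 difference -0.018, 95% interval -0.096 to 0.061, edgeR adjusted p = 0.740, and 0.043 with plain totals).

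Aspm, a spindle pole gene, was called higher, though its groups overlapped. It stood at 278, 239, 277 and 297 CPM in DMSO and 345, 355, 314 and 294 in DS38 (log2 change 0.26 ± 0.073 SE, edgeR adjusted p = 0.0145). Cenpf and the proliferation marker gene Mki67 varied in the same manner. Cenpf stood at 312, 253, 300.1 and 337 CPM in DMSO and 441, 438, 383 and 344 in DS38, with no overlap (log2 change 0.42 ± 0.111 SE, edgeR adjusted p = 0.0203). Mki67, whose product coats mitotic chromosomes, stood at 865, 721, 746 and 928 CPM in DMSO and 998, 1099, 879 and 813 in DS38. Its groups overlapped and the log2 difference of 0.22 (95% interval -0.065 to 0.50) did not pass (edgeR adjusted p = 0.198).

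Cenpf, Aspm and Mki67 are the 3 longest of the 45, at 15433, 11590 and 10061 bases. For all 3, DMSO replicate 2 was the lowest and DMSO replicate 4 the highest DMSO library, and DS38 replicates 3 and 4 were below DS38 replicates 1 and 2. Over all 15133 genes, Spearman's rank correlation between gene length and the deviation of a library from its group mean was -0.31 in DMSO replicate 2, 0.39 in DS38 replicate 1 and -0.36 in DS38 replicate 4, and -0.16 to 0.11 in the other 5. The part of this in the 3 genes was not tested, and these are correlations across genes, which are not independent replicates. The call of Cenpf was lost without DS38 replicate 1 (adjusted p = 0.0532) or DMSO replicate 3 (0.0507), without a filter on low counts (0.0774), and without both libraries numbered 1 (0.112), when that of Aspm was lost too (0.097). With an offset for length and GC content both genes were still called. Across the 45 genes the log2 change had a Spearman's rank correlation of 0.0053 with length, against 0.223 over all tested genes, and the median length was 4919 bases for the rises and 5231 for the falls.

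**Figure D3:**
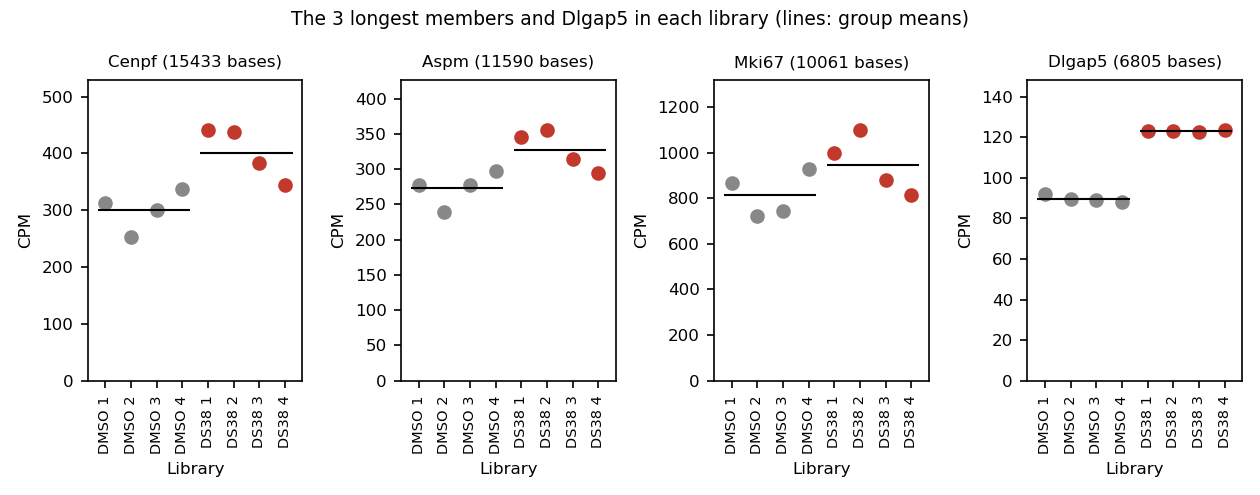
CPM of Cenpf, Aspm, Mki67 and, for comparison, Dlgap5 in each of the 8 libraries (grey: DMSO; red: DS38; lines: group means). The 3 long genes spread widely within a group, Cenpf from 252.7 to 337 in DMSO, while the DS38 values of Dlgap5 lie between 123 and 124.

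Of 3 cytokinesis genes 1 fell and 0 rose, a share of 33.3% beside 39.5% of all tested genes. Anln, which encodes the contractile ring protein anillin, went from 186, 186, 188 and 191 CPM in DMSO to 174, 181, 173 and 162 in DS38, without overlap (log2 change -0.12 ± 0.040 SE, edgeR adjusted p = 0.0227). The call was lost without DS38 replicate 3 (adjusted p = 0.0649) or DS38 replicate 4 (0.0994), without both libraries numbered 1 (0.0503) and with plain totals (0.258). Prc1, the gene of the protein that bundles midzone microtubules, stood at 229, 238, 234 and 220.2 CPM in DMSO and 215, 220.1, 219 and 214 in DS38. Every DS38 value was lower, yet the log2 difference of -0.085 (95% interval -0.16 to -0.0060) did not pass over all genes (edgeR adjusted p = 0.0814). Ect2, a cytokinesis gene, stood at 268, 273, 275 and 265 and 261, 263, 266 and 267 CPM. Its groups overlapped (log2 difference -0.033, 95% interval -0.11 to 0.042, edgeR adjusted p = 0.490, and 0.027 with plain totals).

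Genes that shape mitotic chromosomes were mostly lower, with 5 falls and 1 rise of 7, a share of 85.7% beside 39.5% of all tested genes. Top2a, the topoisomerase that untangles sister chromatids, stood at 1185, 1189, 1271 and 1222 CPM in DMSO and 996, 1046, 1010.3 and 959.6 in DS38. The groups were far apart, with a log2 change of -0.28 ± 0.042 SE (edgeR adjusted p = 3.81e-05). Of the condensin I subunit genes, Ncapg went from 164, 165, 175 and 159.6 to 136, 136, 146 and 136 CPM (log2 change -0.26 ± 0.041 SE, edgeR adjusted p = 5.95e-05). Ncaph, the kleisin subunit that closes the ring, went from 154, 155, 164 and 147 to 131, 134, 131 and 134 CPM (log2 change -0.23 ± 0.040 SE, edgeR adjusted p = 0.000191). Both had all DS38 libraries below all DMSO libraries.

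The ATPase subunit genes Smc2 and Smc4, which serve condensin I and II alike, were among the most abundant of the 45. Smc2 fell from 656 ± 29.2 to 572 ± 5.92 CPM (log2 change -0.20, edgeR adjusted p = 0.000801). Smc4 fell by less (log2 change -0.12, edgeR adjusted p = 0.0317), and its call was lost in 11 of 19 alternatives, among them each of the leave-outs of DMSO replicates 3 and 4 and of the 4 DS38 libraries (adjusted p = 0.0542 to 0.0944). Ncapd2, a HEAT-repeat subunit of condensin I, rose from 461 ± 14.1 to 509 ± 15.2 CPM (log2 change 0.14, edgeR adjusted p = 0.00701), and did not pass with the offset for length and GC content (0.076, adjusted p = 0.0854). Per length, Smc4 and Smc2 led condensin I in DMSO at 145 and 120 RPKM, followed by Ncapd2 at 73.5, Ncaph at 36 and Ncapg at 23.5, and this order was the same in DS38, at 134, 104, 81.2, 30.7 and 19.6.

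Because partner genes moved apart, their ratio within a library, which does not depend on how libraries are scaled, was also described. The 6 pairs were chosen after their members were seen to move apart, which fixes the outcome, so their ratios are a description and were not tested. Per length, Ccnb1 over Cdk1 was 1.18, 1.15, 1.17 and 1.12 in DMSO and 1.8, 1.66, 1.81 and 1.77 in DS38. Cdc20 over its inhibitor Mad2l1 was 2.74 ± 0.128 and 3.64 ± 0.196 (SD, n = 4 each), and Tpx2 over Aurka was 1.76 ± 0.0985 and 2.08 ± 0.115. For these 3 pairs the lowest DS38 ratio exceeded the highest DMSO ratio. Securin over separase, Pttg1 over Espl1, was 0.648 to 0.746 in DMSO and 0.759 to 0.958 in DS38. Within complexes, Ncapd2 over Ncaph went from 2.04 ± 0.0835 to 2.64 ± 0.0827, whereas Spc24 over Nuf2 went from 0.843 ± 0.0596 to 0.564 ± 0.0591.

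**Figure D4:**
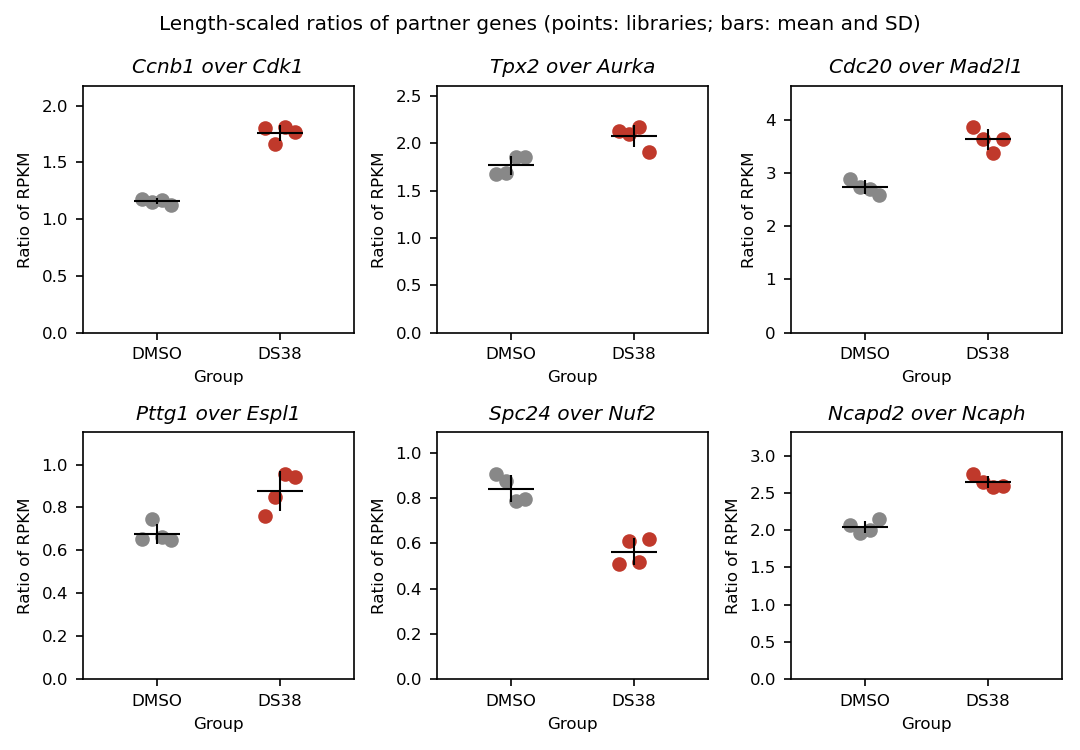
Ratio of length-scaled levels (RPKM) of 6 pairs of partner genes in each library (grey: DMSO; red: DS38; bars: mean and SD of 4 libraries). The pairs were chosen because their members moved apart, so the DMSO and DS38 points do not overlap in the panels by that choice, and Spc24 over Nuf2 is the pair that is lower in DS38.

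Of 99 other genes for mitotic entry, kinetochores, the anaphase-promoting complex, cohesin, condensin II, spindle and cytokinesis, 15 rose, 38 fell and 46 did not pass. The share called was 53.5%, beside 39.5% of all tested genes and 49.6% of genes in the level range of the 45. Of all tested genes, 18.8% were called higher and 20.7% lower. The median log2 change of the 99 genes was -0.069. With plain library totals 26 of them rose and 32 fell. The difference from the 45 genes was not tested. The rises with the smallest p were Numa1, a spindle pole organiser gene (log2 change 0.35), Ckap5, a microtubule polymerase gene (0.33), Bora, a cofactor in Plk1 activation (0.30), and Tacc3, a spindle gene (0.28), with edgeR adjusted p up to 5.62e-05. The falls with the smallest p were Anapc16, a subunit of the anaphase-promoting complex (-0.55), Fbxo5, its inhibitor Emi1 (-0.45), the cohesin acetyltransferase gene Esco2 (-0.43) and the condensin II gene Ncapd3 (-0.39), with edgeR adjusted p up to 8.14e-07.

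DNA replication genes, which act earlier in the cell cycle, moved one way in the same libraries. Among 40 such genes there were 33 falls and 0 rises, and 7 missed the threshold (median log2 change -0.28). The share called was 82.5%, beside 39.5% of all tested genes, and 20.7% of all tested genes were called lower. The falls were led by Rrm2, a ribonucleotide reductase subunit gene (-0.79), and the replicative helicase gene Cdc45 (-0.76). Their summed level was 6751 ± 161 CPM in DMSO and 5601 ± 146 in DS38 (SD, n = 4 each), without overlap, and also without overlap by plain totals (6604 ± 130 and 5712 ± 133). The summed level of the 45 mitosis genes was 9794 ± 159 and 9803 ± 264 CPM. The difference between the lists was not tested.

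**Figure D5:**
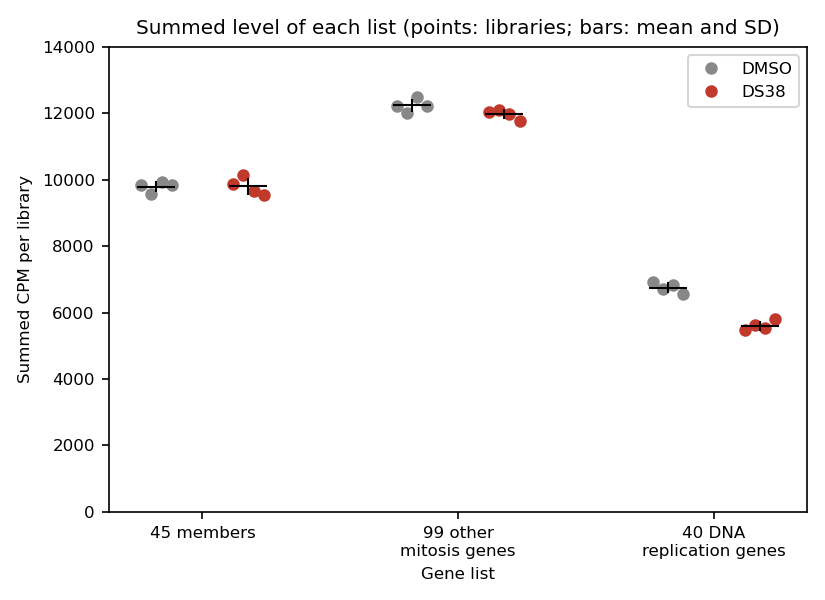
Summed CPM of the 45 mitosis genes, 99 other mitosis genes and 40 DNA replication genes in each library (grey: DMSO; red: DS38; bars: mean and SD of 4 libraries). The groups overlap for the 45 genes, whereas all DS38 points of the replication genes, 5466 to 5800 CPM, lie below all DMSO points, 6547 to 6909.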

How the data were processed

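RNA of 8 MB21 libraries, 4 per group by GEO's labels, was prepared with a Roche Kapa mRNA kit, per the labels' protocols. The values used are the authors' deposited read counts per gene, with the deposited gene length in bases. The submitters' processing notes name the builds GRCm39 and GRCh38.p13 and, without saying which did what, edgeR, R 4.1.0, featureCounts, STAR 2.7.9a and Subread 2.0.3. For strand setting, multimapping and annotation release the answer is "not given in the sources used here". There were 0 other columns of per-sample values.

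Genes were kept with edgeR's filterByExpr (minimum count 10), scaled by TMM, and tested with edgeR's robust quasi-likelihood test over all 15133 genes (adjusted p under 0.05, Benjamini-Hochberg, two-sided), in R 4.3.3 with edgeR 4.0.16, limma 3.58.1 and DESeq2 1.42.0. Library totals were 18878556 to 25582159 counts in DMSO and 17142397 to 28476019 in DS38. Libraries of a group differed by more than sampling noise (chi-square per degree of freedom at least 4.31), so none was taken for a repeat. This value was 4.58 to 8.3 between DMSO libraries. In DS38 it was 4.66 between replicates 1 and 2 and 4.31 between replicates 3 and 4, but 11.7 to 20.7 across these pairs. The cause of this split was not tested. RPKM is CPM per kilobase of deposited length. Symbols were matched for 52083 of 55416 identifiers. The test was checked on simulated counts.

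In each role group, values per library are given for the 3 members with the smallest p and the one with the largest. Elsewhere, the 4 other mitosis genes with the smallest p in each direction and 2 replication genes are named. The members and lists were chosen with earlier results of these data known. The 19 alternatives covered scaling, filters, DESeq2, limma-voom, a replicate block, a length and GC offset and leaving out libraries.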

Additional observations from a re-analysis of the deposited data

Results flagged for a closer look

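Of 90 sets of 4 libraries (each of the 45 genes in each group), 3 held a library far from the other 3 by Dixon's test at 95%, which chance gives in about 1 in 20. Cenpn stood at 46.5 CPM in DS38 replicate 4, with the other DS38 libraries from 42.0 to 42.6. Ncapg stood at 145.6 CPM in DS38 replicate 3, with the others from 135.6 to 136. Smc2 stood at 699 CPM in DMSO replicate 3, with the others from 637 to 645.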

How the results depend on the processing

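Over 19 alternatives, 11 of 15 rises, 12 of 17 falls and 5 of 13 genes that did not pass kept their call and direction in every one. Leaving out 1 library gave 13 to 15 rises and 15 to 17 falls, and 4939 to 5912 called genes in all. DESeq2's Wald test called 16 rises and 17 falls, limma-voom 15 and 17, and leaving out both libraries numbered 1 gave 12 and 15. Scaling by library totals alone moved the median of all genes from -0.0093 to 0.051 (log2), and with it 26 of the other mitosis genes rose and 32 fell, against 15 and 38. The medians then were 0.195 for entry, 0.049 for Aurora and Polo, 0.16 for the checkpoint, -0.111 for the kinetochore, -0.0245 for cytokinesis and -0.135 for the chromosome genes. With a length and GC offset the checkpoint median was 0.0587 (0.0588 with the replicate block) and the kinetochore median -0.142 (-0.142 with the block), and without both libraries numbered 1 the latter was -0.143. Signs turned for Cdc25b (0.000681 with DESeq2 size factors, 0.0545 with totals, 0.000711 with DESeq2's Wald test, 0.00933 with at least 50 counts in 4 libraries, -0.0244 to 0.0216 leaving out 1 library), and with totals for Ttk (0.0311), Nusap1 (0.043) and Ect2 (0.0273). With the offset they turned for Espl1 (-0.00599, and -0.0057 with the block) and Nusap1 (0.0177, and 0.0174 with the block). Leaving out 1 library gave -0.0337 to 0.000405 for Nusap1 and -0.000747 to 0.0373 for Hmmr. The cause was not tested.

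With the replicate number as a block, 14 genes rose and 15 fell of the 45, and 5594 of all genes were called. The calls of Espl1 (edgeR adjusted p = 0.0861), Smc4 (0.062) and Anln (0.055) did not pass in that fit. Same-numbered libraries correlated at 0.357, -0.0809, 0.07 and -0.13 in their deviations. The first of these, for the libraries numbered 1, was the highest between any DMSO and any DS38 library, while not every library correlated best with its own number. Whether the numbers mark a pairing was not tested.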

Other observations

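Genes of the anaphase-promoting complex, the ubiquitin ligase that ends mitosis, were split: 2 of 17 rose and 6 fell, with a median log2 fold change of -0.031, and 9 missed the threshold. Besides Anapc16, the small subunit genes Anapc11 (-0.40) and Anapc15 (-0.35) fell, while Fzr1, which encodes the G1 activator Cdh1, rose (0.26). Of the 3 genes particular to condensin II, Ncapd3 (-0.39) and Ncapg2 (-0.32) fell and Ncaph2 had a difference of 0.10 that did not pass. A further 27 kinetochore genes gave 2 rises and 12 falls (median -0.11), and 13 missed the threshold. Calls are from edgeR's quasi-likelihood test over all genes, and of all tested genes 18.8% were called higher and 20.7% lower.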
